A study of Homo sapiens with 6 samples.

Results

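Regions of chromatin outside promoters that carried an acetylation peak after sodium benzoate (SB), but neither an acetylation peak before it nor a benzoylation peak after it, are described here. They were taken from peak lists of ChIP-seq, in which DNA bound to histones is pulled down with an antibody and sequenced. A region was chosen when its acetyl-lysine (Kac) peak in SB-treated cells shared 0 bp with every Kac peak of control cells, with every benzoyl-lysine (Kbz) peak of SB-treated cells, and with the 3 kb on either side of any annotated transcription start site (TSS). Of the 63282 Kac peaks of SB-treated cells, 12017 met this rule, or 19.0%. These are called gained distal peaks below, where "gained" means only that a peak was listed in one library and none was listed there in the other.

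The cells were labelled HepG2, a line from a human liver tumour, and were either controls or treated with 10 mM SB for 24 h, with no other difference between the groups given. Chromatin was cut with micrococcal nuclease and precipitated with pan antibodies, so the histone and the residue that bore a mark are not known. The series had 6 libraries in 6 groups, 1 per group: input, Kac and Kbz from each culture condition. Of these, 3 had peak lists that were used: Kac from control cells, and Kac and Kbz from SB-treated cells. The labels give no called peaks for Kbz in control cells. Each condition thus rests on a single library of unknown depth, so there was no replicate error and no test. The intervals below are Wilson 95% intervals, which cover counting error only. The cell label was checked at promoters: in the control Kac list, 10 of 20 genes of liver plasma proteins and 7 of 11 liver transcription factors had a peak, against 12 of 14 kidney development factors, 9 of 16 neuronal genes and 3 of 14 blood lineage markers. Over all 19962 protein-coding genes the share was 76.8%. ALB, APOB, SERPINA1, FGA, FGB and FGG, which encode abundant products of hepatocytes, had no Kac peak at a promoter in either list, and AFP had one only in the SB list.

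Acetylation of histone tails is laid down by acetyltransferases such as CREBBP and EP300, removed by deacetylases and bound by bromodomain proteins. Away from promoters it marks active enhancers, short stretches of DNA that bind transcription factors and raise the output of a gene that may lie far away. Benzoylation is an acyl mark on the same kind of residue, built from benzoyl-CoA, to which cells convert benzoate. Transcription factors bind enhancers at short sequence motifs, among them that of AP-1, a dimer of FOS and JUN family proteins.

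The gained distal peaks with the highest fold, the authors' ratio of read density in a peak over its background, are given first as examples and not as typical members. The central 200 bp of 4 of them are printed from the plus strand of hg38, in lower case, with capitals for any match to the 19 motifs described below. The member with the second highest fold, 4.58, lay in an intron of NCOA2, a coactivator of nuclear receptors, and is given without sequence, as is the one with the third highest, 4.43, in an intron of PARD3, a cell polarity scaffold. The first window lay in intergenic sequence, 63026 bp from the nearest TSS of BCL2, an inhibitor of apoptosis, in a peak with a fold of 4.78. The others were assigned, by the nearest coding TSS, to SPINK2, a serine protease inhibitor (24074 bp away, fold 4.38), and to HS6ST1, a heparan sulfate sulfotransferase (230436 bp away, 4.33), or lay in an intron of the zinc finger gene ZNF536 (4.37).
BCL2, chr18:63075114-63075313: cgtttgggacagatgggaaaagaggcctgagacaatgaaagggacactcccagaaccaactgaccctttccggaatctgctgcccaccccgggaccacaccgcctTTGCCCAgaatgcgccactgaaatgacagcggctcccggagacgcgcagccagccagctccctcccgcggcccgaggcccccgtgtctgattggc
SPINK2, chr4:56787468-56787667: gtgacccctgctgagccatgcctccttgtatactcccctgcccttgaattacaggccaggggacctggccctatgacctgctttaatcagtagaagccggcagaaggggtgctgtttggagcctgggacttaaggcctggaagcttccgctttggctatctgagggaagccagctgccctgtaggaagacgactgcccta
ZNF536, chr19:30628100-30628299: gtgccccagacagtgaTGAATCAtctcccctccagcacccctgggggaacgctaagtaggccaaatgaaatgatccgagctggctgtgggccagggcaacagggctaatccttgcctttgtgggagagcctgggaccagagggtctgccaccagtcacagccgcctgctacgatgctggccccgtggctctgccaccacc
HS6ST1, chr2:128549804-128550003: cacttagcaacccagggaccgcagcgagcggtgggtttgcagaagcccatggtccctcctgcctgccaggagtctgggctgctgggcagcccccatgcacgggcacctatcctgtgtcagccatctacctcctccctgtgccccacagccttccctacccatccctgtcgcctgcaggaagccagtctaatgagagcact
The BCL2 window held 1 C/EBP match and the ZNF536 window 1 AP-1 match, and the SPINK2 and HS6ST1 windows held none of the 19 motifs. The GC content of these windows ran from 57.5% (SPINK2) to 63.5% (BCL2 and HS6ST1). In the central 300 bp, the median over all gained distal peaks was lower, 46.3%, and the NCOA2 and PARD3 peaks had 31% and 49.7%. Of the 10 gained distal peaks with the highest fold, 6 were under 500 bp long and 6 lay in introns. Others of these 10 were assigned to AGRN, which encodes agrin of the basement membrane (fold 4.31), CORO2A, a coronin (4.28), and NT5DC3 (4.25).

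For motifs, 2 more windows show the highest-fold members with a homeobox match, 9179 bp from the TSS of ETFA, a mitochondrial flavoprotein subunit (fold 4.18), and with a match for the SP/KLF zinc fingers, over an exon of AGRN. In the ETFA window the capitals join an HNF1 match and a homeobox match that share letters.
ETFA, chr15:76321224-76321423: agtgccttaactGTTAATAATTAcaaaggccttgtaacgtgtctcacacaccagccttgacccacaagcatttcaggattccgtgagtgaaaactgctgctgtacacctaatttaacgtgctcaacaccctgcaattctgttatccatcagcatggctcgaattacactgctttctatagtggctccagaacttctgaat
AGRN, chr1:1040396-1040595: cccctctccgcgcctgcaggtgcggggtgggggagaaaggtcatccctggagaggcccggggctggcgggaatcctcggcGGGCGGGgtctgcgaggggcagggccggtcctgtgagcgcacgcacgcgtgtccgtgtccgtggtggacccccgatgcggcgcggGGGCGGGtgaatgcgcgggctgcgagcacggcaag
The AGRN window had a GC content of 75.5% and 2 SP/KLF matches, against 43.5% in the ETFA window.

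Gained distal peaks were weak and short for their list. Their median fold was 2.64 (lowest 1.82, highest 4.78) and stood at percentile 24.9 of all SB Kac peaks. The median length was 694 bp, with quartiles of 423 and 1092 bp, and together they covered 10.1 Mb. Peaks chosen by the same rule except that they did overlap a control Kac peak, 16749 shared distal peaks without Kbz, had a median fold of 2.83 and a median length of 1012 bp. The 182 gained distal peaks that did overlap a Kbz peak had a median fold of 2.91 and a median length of 680 bp. Both measures come from the contrast that chose the regions and are given as a description. Median −log10 q, the peak caller's adjusted confidence, was 1.94 in gained distal peaks and 2.58 in shared ones. It was under 2, which equals the stated false discovery rate, in 54.4% (53.5 to 55.2) of gained and 24.9% (24.3 to 25.6) of shared distal peaks. A −log10 q of at least 5 was reached by 87 gained distal peaks, or 0.724%, against 7.505% of shared ones. Those 87 had a median fold of 3.86, a median length of 461 bp and a median GC content of 45.3%, against 46.3% for the other 11930.

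**Figure D1:**
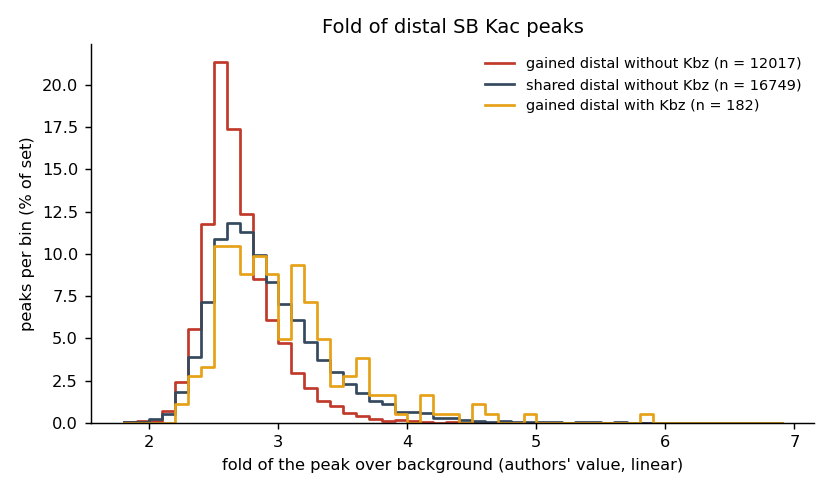
Distribution of the authors' fold (x axis, linear ratio) in bins of 0.1 as a percent of each set (y axis), for 12017 gained and 16749 shared distal SB Kac peaks without Kbz and 182 gained distal peaks with Kbz. The gained peaks without Kbz lie lowest, with a median of 2.64 against 2.83 and 2.91.

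The longest members lay in FBXO8, an F-box gene (5571 bp, fold 3.07), in ERBIN, a scaffold that binds ERBB2 (5547 bp, 3.43), and in SLC8A1, the sodium/calcium exchanger (5218 bp, 2.96). Peaks over 2000 bp made up 4.30% (3.95 to 4.68) of gained and 19.4% (18.8 to 20.02) of shared distal peaks. At the edge of the rule, the 160 members with a control Kac peak within 100 bp had a median fold of 2.61, and the 368 distal SB Kac peaks that shared 1 to 100 bp with a control peak had the same median, 2.61. The 121 members that lay up to 100 bp outside the 3 kb window had a median fold of 2.64, and the 124 gained peaks without Kbz that reached up to 100 bp into it had 2.71. Only 8 members had a Kbz peak within 100 bp, and 5 gained distal peaks shared 1 to 100 bp with one.

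How much of the distal Kac was gained depended on how strong the peak was. Of all SB Kac peaks 27.5% had no control Kac peak, of the distal ones 34.5%, and of the 28766 distal ones without Kbz 41.8% (41.2 to 42.3). In deciles of fold over the whole SB Kac list, this last share was 52.1% in the lowest decile and 58.4% in the second, then fell through 35.7% in the fifth and 11.8% in the eighth to 4.84% in the ninth. In the highest decile it was 0 of 27 peaks (0 to 12.5%). The control Kac list behaved alike in the opposite direction: 18116 of its 34434 distal peaks without Kbz, or 52.6% (52.1 to 53.1), had no SB Kac peak, and they are called lost distal peaks. Their share went from 68.8% in the lowest to 18.0% in the highest decile of control Kac fold. Thus the lost distal peaks outnumbered the gained ones in these lists, 18116 to 12017. Over the whole lists, 35.3% of control Kac peaks lacked an SB Kac peak, and the part of depth in either share was not tested. Lost distal peaks were of a length like that of the gained ones, with a median of 714 bp, and 4.50% of them reached a −log10 q of at least 5.

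Kbz was less common on gained than on shared distal acetylation at every strength with enough peaks to compare. Of the 12199 gained distal peaks, with and without Kbz, 182 overlapped a Kbz peak, or 1.49% (1.29 to 1.72). Among the 23211 shared distal peaks 6462 did, or 27.8% (27.3 to 28.4). Within the fifth decile of fold the shares were 2.05% (1.43 to 2.93) and 10.96% (9.86 to 12.2). In the seventh they were 5.50% (3.90 to 7.70) and 32.7% (31.1 to 34.3), and in the eighth 10.3% (6.41 to 16.01) and 60.6% (58.7 to 62.4). The ninth decile held 19 gained distal peaks, of which 7 had Kbz, against 1538 of 1774 shared ones. Absence of Kbz was part of the rule, so these shares describe all gained distal peaks. Kbz and Kac in SB-treated cells came from different antibodies and libraries, and the part of their depth in these shares was not tested. Among distal peaks without Kbz, shared ones were longer than gained ones, with medians of 1012 and 694 bp. The part of peak length in these shares was not tested either.

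**Figure D2:**
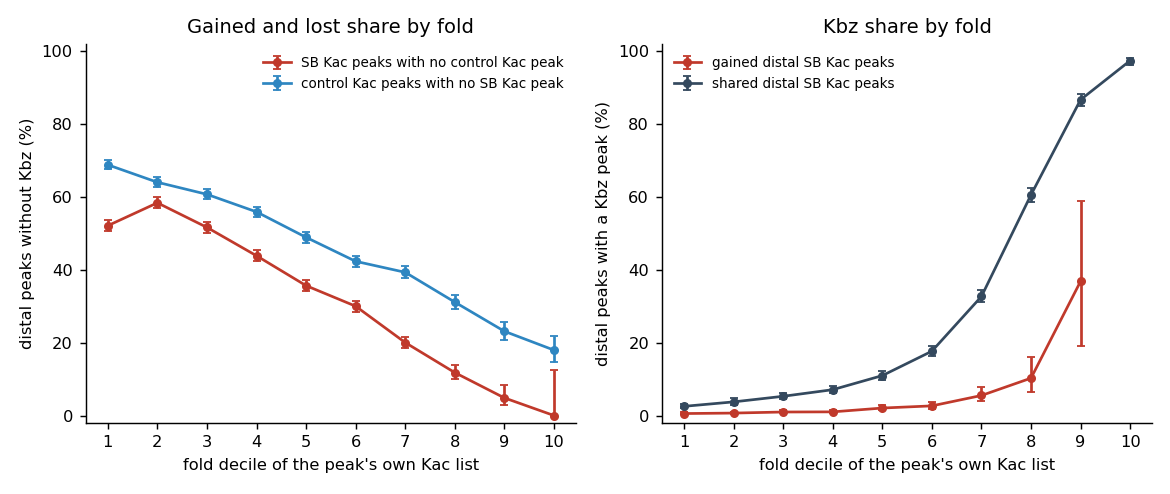
Left: share (y axis, percent) of distal SB Kac peaks without Kbz that had no control Kac peak, and of distal control Kac peaks without Kbz that had no SB Kac peak, by fold decile of their own list (x axis). Right: share of gained and shared distal SB Kac peaks that overlapped a Kbz peak. Points are shares and bars Wilson 95% intervals. A point of 1 gained peak in the highest decile is left out. Gained shares are 52.1% and 58.4% in the lowest deciles and 0% in the highest, and Kbz shares of gained peaks stay under those of shared peaks.

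Gained distal peaks lay inside genes more often than the other distal peaks did. By position, 62.8% (61.9 to 63.6) were intronic, 10.1% (9.54 to 10.6) touched an exon and 27.2% (26.4 to 28.0) were intergenic. Among shared distal peaks 54.6% (53.8 to 55.3) were intronic and 36.0% (35.3 to 36.7) intergenic, and among lost ones 50.01% (49.3 to 50.7) and 41.2% (40.5 to 42.0). Inside a protein-coding gene were 63.9% (63.0 to 64.7) of gained, 51.5% (50.7 to 52.2) of shared and 44.9% (44.1 to 45.6) of lost distal peaks. The intronic share of gained peaks was above that of shared ones in each of the lowest 9 fold deciles, with 65.3% against 56.0% in the lowest and 65.3% against 54.1% in the sixth. The ninth decile held 12 gained peaks. Position was not part of the rule beyond the distance from a TSS, and the intervals do not meet, but with 1 library per condition a difference between the libraries as such cannot be told apart from one between conditions.

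The genes that housed gained distal peaks mostly had acetylated promoters already. Of the 7675 gained distal peaks inside protein-coding genes, 95.7% (95.2 to 96.1) were in a gene with a control Kac peak at a promoter, 95.4% (94.9 to 95.9) in one with an SB Kac peak and 83.4% (82.6 to 84.2) in one with a Kbz peak there. For shared distal peaks these were 95.4%, 94.9% and 82.5%, and for lost ones 91.9%, 90.4% and 76.4%. Over all 19962 protein-coding genes they were 76.8%, 75.9% and 64.8%, where each gene counts once whatever its length. In a gene whose promoter had SB Kac and no control Kac were 67 gained distal peaks, or 0.873% (0.688 to 1.11). Among shared and lost ones these were 1.01% and 1.39%. The reverse, control Kac and no SB Kac, held for 88 gained distal peaks, or 1.15%, against 1.55% of shared and 2.89% of lost ones. A gene with no promoter peak of any list housed 260 gained distal peaks, or 3.39%, against 3.57% of shared and 6.69% of lost ones. Host genes were long, with a median of 164 kb per gained, 171 kb per shared and 159 kb per lost peak.

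Gained distal peaks were also nearer to coding genes. The nearest coding TSS was at a median of 19055 bp from gained, 23314 bp from shared and 27890 bp from lost distal peaks. Beyond 100 kb from any coding TSS were 12.2% (11.6 to 12.8), 17.2% (16.6 to 17.8) and 21.9% (21.3 to 22.5) of them.

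Free of control Kac by the rule, gained distal peaks lay at all distances from it. The nearest control Kac peak was at a median of 5336 bp, and 48.1% (47.2 to 49.0) had one within 5 kb, 82.4% (81.7 to 83.0) within 20 kb. Only 239, or 1.99%, had none within 100 kb. Lost distal peaks were farther from the SB Kac list, with a median of 7149 bp, 40.2% (39.5 to 40.9) within 5 kb and 5.33% with none within 100 kb. The SB Kac list is also the shorter, with 63282 peaks against 70326 in the control Kac list. The part of list length in this difference was not tested. The 3 gained distal peaks farthest from control Kac were assigned to the zinc finger gene ZNF716 (1761127 bp, fold 3.13), to KHDRBS2, which encodes an RNA-binding protein (1484714 bp, 2.88), and to CRIM1, which encodes a membrane protein that binds bone morphogenetic proteins (962481 bp, 3.57). The nearest peak of the Kbz list, a shorter list whose distances are therefore not comparable with those to control Kac, was at a median of 21610 bp. Of the gained distal peaks 14.0% (13.4 to 14.6) had a Kbz peak within 5 kb, against 16.8% (16.2 to 17.4) of shared ones. A lost distal peak within 5 kb was as common beside gained (18.4%, 17.7 to 19.1) as beside shared distal peaks (18.9%, 18.3 to 19.5), with overlapping intervals.

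**Figure D3:**
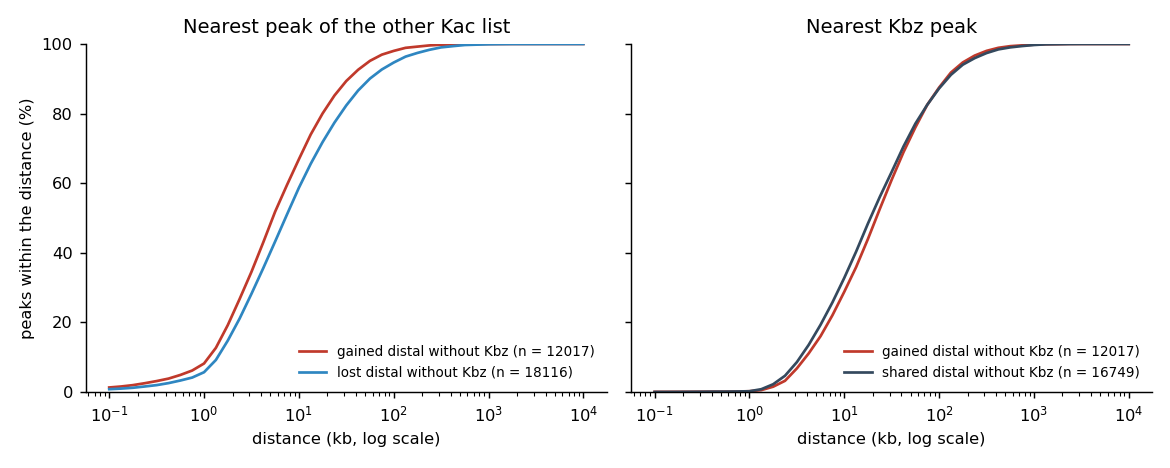
Cumulative share of peaks (y axis, percent) with the nearest peak within the distance on the x axis (kb, log scale). Left: gained distal peaks to control Kac and lost distal peaks to SB Kac, with medians of 5336 and 7149 bp. Right: gained and shared distal peaks to Kbz. On the left, the gained curve lies to the left of the lost curve, and the lists measured to differ in length (70326 control and 63282 SB Kac peaks).

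Most members had no other member within 10 kb. Joined over gaps of at most 10 kb, they formed 10247 runs, of which 8794 held a single member and 255 held at least 3, and 26.8% of members were in a run of at least 2. Any other SB Kac peak lay within 5 kb of 47.7% of members, against 54.7% of shared distal peaks. Within that distance 48.1% of members had a control Kac peak. Runs of shared or lost peaks were not counted. The runs with 6 members lay at RNF220, a ubiquitin ligase gene (chr1:44552183-44576999), at NCOA3, a nuclear receptor coactivator with acetyltransferase activity (chr20:47535174-47565614), and at PKNOX2, a homeobox gene (chr11:125201074-125234214). They spanned 24.8, 30.4 and 33.1 kb.

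The GC content of gained distal peaks was close to that of shared ones and above that of lost ones. In the central 300 bp, the median GC content was 46.3% in gained, 46.0% in shared and 45.7% in lost distal peaks. Windows with a GC content of at least 50% made up 36.2% (35.3 to 37.04) of gained and 35.7% (35.01 to 36.5) of shared peaks, with overlapping intervals, and 31.7% (31.0 to 32.4) of lost ones. In the 182 gained distal peaks with Kbz the share was higher, 48.9% (41.7 to 56.1). The share of distal SB Kac peaks without Kbz that were gained moved little over 7 bins of GC content, between 39.5% (37.5 to 41.6) at 60% and over and 43.2% (41.9 to 44.6) at 50 to 55%. The lost share in control Kac moved more, from 41.7% (39.6 to 43.8) at 60% and over to 56.1% (54.9 to 57.2) at 40 to 45%. At least 10 CpG pairs were found in 5.70% (5.30 to 6.13) of gained, 6.92% (6.55 to 7.31) of shared and 3.89% (3.61 to 4.18) of lost windows.

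The motif of AP-1 was scarcer in gained distal peaks than in shared or lost distal peaks without Kbz. The letters TGANTCA, on either strand, were found in the central 300 bp of 10.4% (9.84 to 10.9) of gained, 14.7% (14.2 to 15.3) of shared and 15.1% (14.6 to 15.6) of lost distal peaks. Gained distal peaks with Kbz had them in 19 of 182, or 10.4% (6.79 to 15.7). All SB Kac peaks had them in 10.99% and RefSeq promoters of 300 bp (GRCh38.p14) in 7.71%. The share of gained peaks was under that of shared peaks in each of 7 bins of GC content, with 11.04% against 16.2% at 45 to 50% and 7.201% against 12.3% at 55 to 60%. At a GC content under 35% the intervals overlapped, 12.2% (10.4 to 14.2) and 12.8% (11.3 to 14.5). It was also lower in each of the lowest 9 fold deciles, with 10.7% against 14.4% in the lowest, where gained and shared peaks were of like fold, and 10.2% against 15.5% in the sixth.

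The middle base set most of this gap, in a split chosen after the values were seen. With C or G in the middle (TGACTCA or TGAGTCA), the form AP-1 dimers bind best, shares were 6.18% (5.77 to 6.63) of gained, 9.93% (9.49 to 10.4) of shared and 10.3% (9.88 to 10.8) of lost distal peaks. With A or T in the middle they were 4.55% (4.19 to 4.94), 5.42% (5.09 to 5.77) and 5.51% (5.19 to 5.86). In introns alone the C or G form was in 6.48% of gained and 9.78% of shared peaks, and in intergenic sequence in 5.57% and 10.6%. Counted over whole peaks, there were 2.07 such matches per 10 kb of gained, 2.93 of shared and 3.33 of lost distal peaks. Sites from high-fold peaks of each set that held this form are printed, not the highest one in the shared set, with 30 bp on either side and the match in capitals, as examples of the letters that were counted.
gained, assigned to RALGAPB, chr20:38460332-38460398: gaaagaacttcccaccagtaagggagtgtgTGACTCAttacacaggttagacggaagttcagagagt
gained, intron of NCK2, chr2:105873930-105873996: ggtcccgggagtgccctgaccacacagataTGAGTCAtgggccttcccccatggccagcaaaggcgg
shared, assigned to ADAMTS17, chr15:99928593-99928659: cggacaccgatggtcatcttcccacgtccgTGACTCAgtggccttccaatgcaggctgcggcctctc
lost, assigned to NHLRC3, chr13:39145060-39145126: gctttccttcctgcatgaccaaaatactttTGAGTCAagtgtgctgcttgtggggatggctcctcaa
lost, assigned to PPP1R3A, chr7:113873710-113873776: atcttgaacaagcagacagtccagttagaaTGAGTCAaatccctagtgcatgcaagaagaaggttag
The peaks around the 2 gained sites had folds of 4.11 and 3.94, at percentiles 79.3 and 76.8 of the SB Kac list. A match is a description of letters and not a site known to be bound.

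Of the other 18 motifs, none differed between gained and shared distal peaks by as many points as AP-1, whose difference was -4.35. The homeobox letters TAATTA were in 8.21% (7.73 to 8.72) of gained and 9.60% (9.16 to 10.1) of shared peaks, but in 8.63% of lost ones, whose interval overlapped that of the gained. The SP/KLF letters GGGCGGG were in 2.63% of gained, 3.31% of shared and 2.08% of lost peaks, and in 33.1% of RefSeq promoters. C/EBP (TTGCNCA) was in 16.5% of gained and 15.98% of shared peaks. Factors of liver cells differed little: HNF4 (CAAAGTC) was in 4.69% and 4.70%, HNF1 (GTTAATN) in 10.6% and 11.1%, and FOX (TGTTTAC) in 4.64% and 4.85%, in that order. The remaining motifs were CRE (TGACGT), those of the GATA factors (AGATAAG), TEAD (GGAATGT), RUNX (TGTGGTT), SOX (ACAATGG), ETS (CGGAAGT), NF-Y (AGCCAAT), the E-box (CACGTG), CTCF (AGGGGGC), TCF/LEF (ATCAAAG), POU (ATGCAAA) and AHR (TNGCGTG). All were searched on both strands, and HNF1 with homeobox as well as C/EBP with POU can share letters. TEAD was in 5.13% (4.75 to 5.54) of gained and 4.63% (4.33 to 4.96) of shared peaks, and the E-box in 5.01% and 5.06%. Over the 19 motifs, the share of RefSeq promoters with a match ran from 2.62% (TCF/LEF) to 33.1% (SP/KLF).

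**Figure D4:**
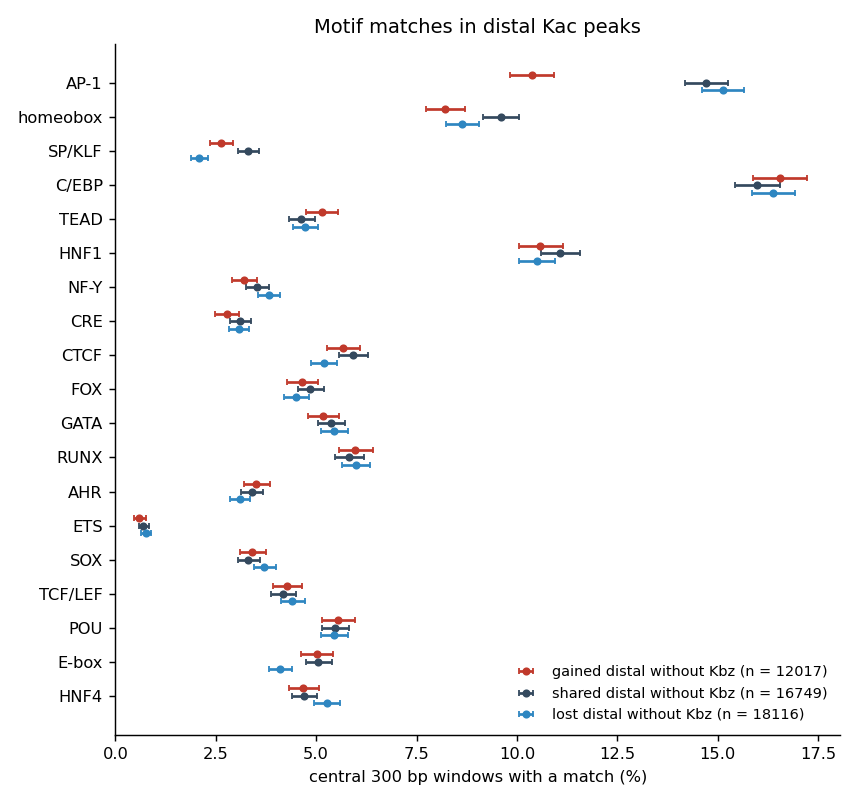
Share of central 300 bp windows with a match (x axis, percent) for 19 motifs (y axis, ordered by the size of the difference between gained and shared), in gained, shared and lost distal Kac peaks without Kbz. Points are shares and bars Wilson 95% intervals. The AP-1 interval of the gained peaks, 9.84 to 10.9%, lies clear of the others, and for most motifs the intervals overlap.

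Every chromosome analysed held members. The share of distal SB Kac peaks without Kbz that were gained ran from 36.0% (31.8 to 40.4) on X and 36.1% (31.5 to 41.0) on chromosome 21 to 45.6% (43.1 to 48.2) on chromosome 7. Members per lost distal peak ran from 0.471 on X and 0.484 on chromosome 5 to 0.974 on chromosome 16, where 370 members stood against 380 lost peaks. Lost distal peaks outnumbered members on all 23 chromosomes.

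Each member was assigned to the protein-coding gene it lay in or, failing that, to the one with the nearest TSS. Of 19962 such genes 5482, or 27.5% (26.8 to 28.1), had at least 1 member, 2946 had exactly 1, 509 had 5 or more and 96 had 10 or more. Long genes had members more often, from 11.03% (10.2 to 11.9) of genes of up to 10 kb to 63.0% (60.5 to 65.4) of those over 200 kb. Of the 5482 genes with a member, 3686 had a lost distal peak as well and 1796 had none. Over all 19962 protein-coding genes, 6812 had a lost distal peak. These counts were not matched for gene length.

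AUTS2, which encodes a partner of Polycomb proteins in neuronal development, had the most members: 31, with 30 shared and 16 lost distal peaks (all without Kbz). The fold of its members ran from 2.37 to 3.49 with a median of 2.75, and 11 of the 31 had a control Kac peak within 5 kb. CREB5, a bZIP transcription factor that binds cyclic AMP response elements, had 23 members, 6 shared and 5 lost distal peaks. Its members had folds from 2.39 to 3.29 and lay from 55.7 kb upstream of the gene's start to 546 kb downstream of it, 21 of them inside the gene. In AUTS2 the members stood among shared peaks, and in CREB5 most of the distal acetylation without Kbz in the SB list was gained.

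JARID2, a subunit of Polycomb repressive complex PRC2, had 21 members, 23 shared and 21 lost distal peaks, and only 10 of its members lay inside the gene. ROBO1, the receptor of SLIT guidance cues, had 21 members, 29 shared and 24 lost ones. CDH23, a cadherin of the hair cell tip link, had 21 members, 13 shared and 13 lost ones, all its members inside the gene. The genes with the highest excess of members over lost peaks, chosen after the values were seen, were CREB5 (23 and 5), AUTS2 (31 and 16), the Hedgehog effector GLI2 (18 and 3) and ERC2, a scaffold of the presynaptic active zone (15 and 0). Next were the corepressor RERE (18 and 5), the recombination gene RAD51B (20 and 8), the calcium channel gene CACNA1C (19 and 7), the forkhead gene FOXP1 (18 and 6), the selenocysteine elongation factor gene EEFSEC (15 and 3) and TTC28 (14 and 2).

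**Figure D5:**
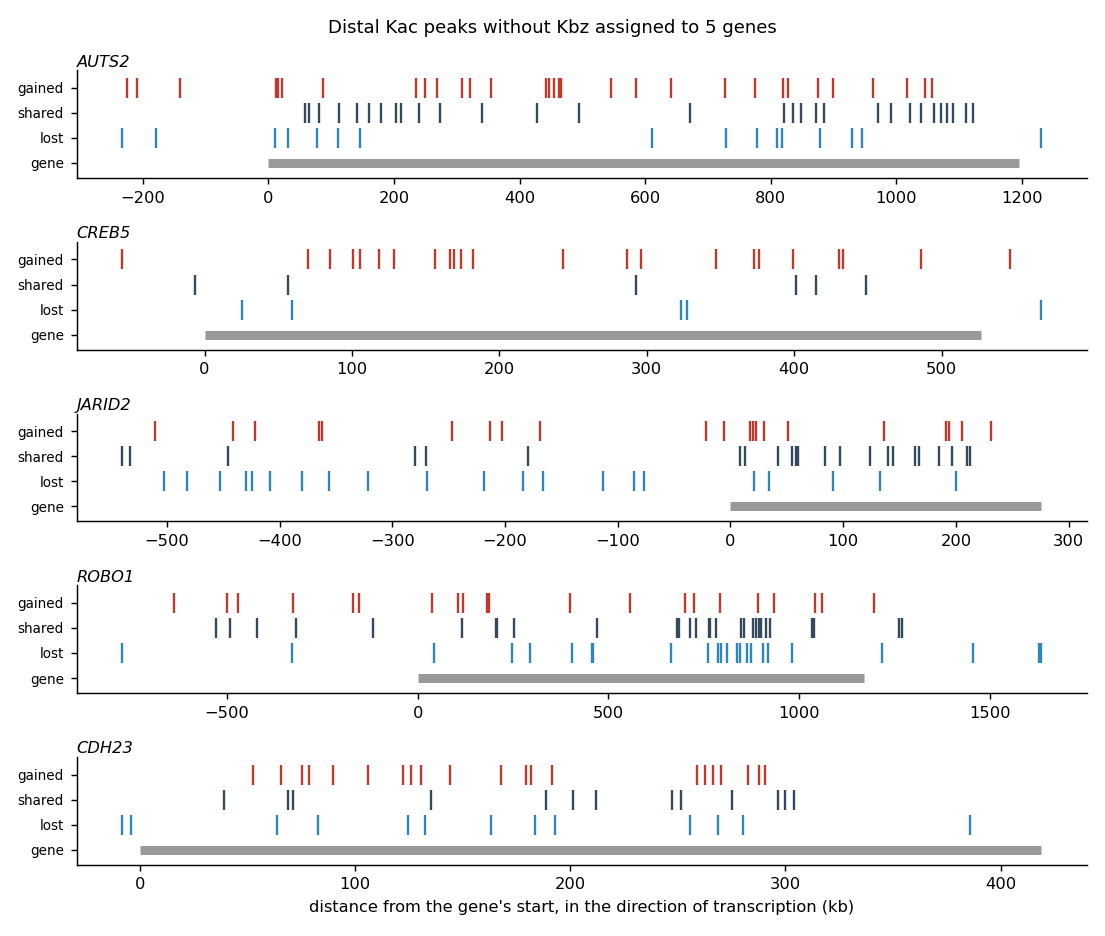
Distal Kac peaks without Kbz assigned to the 5 genes with the most members, placed by distance from the gene's start in the direction of transcription (x axis, kb). Rows of ticks are gained peaks, shared peaks and lost peaks, and the grey bar is the gene. CREB5 shows 23 gained peaks beside 6 shared and 5 lost ones, and JARID2 shows 21 gained and 21 lost ones.

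Genes of acyl-lysine marking were looked at by role. Enzymes that activate benzoate and conjugate it to glycine, where benzoyl-CoA is made and spent, had no member: 0 of 11 genes (0 to 25.9%), with 3 of the 11 assigned a lost distal peak. Histone acetyltransferases had a member in 6 of 12 genes (interval 25.4 to 74.6%), with 21 members and 20 lost distal peaks in all. They were NCOA3 (6 members, 8 lost), NCOA1 (5 and 3), KAT6B (5 and 6), CREBBP (2 and 1), KAT6A (2 and 0) and HAT1 (1 and 1). Deacylases, which remove acyl groups, had a member in 6 of 18 genes (33.3%, 16.3 to 56.3), led by HDAC4 with 7 members and 4 lost peaks, then SIRT5 and HDAC5 with 2 members each. Readers of acyl-lysine had one in 5 of 19 genes (26.3%, 11.8 to 48.8), among them MLLT3, a YEATS domain protein, with 3 members and 8 lost peaks. The share over all protein-coding genes was 27.5%, and their median length was 27.5 kb. The genes of these lists differ from that in length. Medians were 40.2 kb for the benzoate enzymes, 100.7 kb for the acetyltransferases, 30.2 kb for the deacylases and 54.6 kb for the readers. Of all protein-coding genes of 10 to 50 kb 20.2% had a member, which lies inside the interval of the benzoate enzymes. Of those of 50 to 200 kb 44.4% had one.

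In metabolism and signalling, members were found in 15 of 42 genes of glycerophospholipid metabolism (35.7%, 22.99 to 50.8), a pathway that the study itself named and so no independent choice, and in 14 of 27 of insulin and IGF signalling (51.9%, 34.0 to 69.3). With median lengths of 57.9 and 68.5 kb, these genes were longer than the 27.5 kb of all protein-coding genes. Of all protein-coding genes 27.5% had a member, and of those of 50 to 200 kb 44.4% (43.0 to 45.7), which lies inside both intervals. The first held 36 members and 19 lost distal peaks, with PEMT, which methylates phosphatidylethanolamine, at 5 and 3, the phospholipase PLD1 at 4 and 3, and CDS2 and LPIN1 at 4 and 0 each. The second held 38 members and 74 lost ones, with FOXO1 at 7 and 10, FOXO3 at 7 and 7, and the receptor gene IGF1R at 6 and 15.

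In the cytoskeleton and in stress responses, the counts are again to be read beside 27.5% over all protein-coding genes. By length, this share was 11.03% for genes of up to 10 kb, 20.2% for 10 to 50 kb and 44.4% for 50 to 200 kb. Median lengths were 4.2 kb for HOX genes and 7.2 kb for the immediate early and AP-1 list. They were 20.9 kb for ER stress, 25.4 kb for cholesterol and 29.7 kb for NRF2 genes. Actin and adhesion genes, with a median length of 79.3 kb, had one in 22 of 40 (interval 39.8 to 69.3%), with TNS1, a tensin, at 10 members and 12 lost peaks, DST, a cytoskeletal linker, at 9 and 3, and TNS3 at 6 and 11. Genes of immediate early response and of AP-1 had one in 8 of 25 (32.0%, 17.2 to 51.6), with FOSL2 at 4 and 7, JUN at 3 and 8, and IER3 at 2 and 2. Cholesterol synthesis and uptake had 9 of 23 (39.1%, 22.2 to 59.2), with INSIG1 at 3 and 3 and MVK at 2 and 4. The ER stress and amino acid response had 9 of 19 (47.4%, 27.3 to 68.3) and the NRF2 antioxidant response 7 of 17 (41.2%, 21.6 to 64.0). Both lists hold SLC7A11, the cystine transporter, with 5 members and 6 lost peaks. HOX genes had a member in 3 of 39 (7.69%, 2.65 to 20.3), among them HOXC13 with 3 members and HOXB13 with 2.

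Lists that mark cell types held from 4 to 19 members each, beside a share of 27.5% of all protein-coding genes with a member. By length, this share was 11.03% for genes of up to 10 kb, 20.2% for 10 to 50 kb and 44.4% for 50 to 200 kb. Median lengths were 10.8 kb for liver plasma protein genes, 24.0 kb for liver transcription factors and 15.6 kb for kidney development factors. They were 76.5 kb for neuronal genes and 9.6 kb for blood lineage markers. Liver plasma protein genes had 4 members over 4 of 20 genes (interval 8.07 to 41.6%), 1 each at HPX, AMBP, SERPINA1 and AHSG. Liver transcription factors had 3 of 11 genes with members (27.3%, 9.75 to 56.6): HNF4A with 2, CEBPA with 1 and NR1I3 with 1. Kidney development factors had a member in 12 of 14 genes (85.7%, 60.1 to 96.0), the highest share among the 17 lists, with 19 members, 46 shared and 67 lost distal peaks. EMX2, a homeobox factor, had 4 members and 19 lost peaks, LHX1 had 2 and 10, and GATA3 had 2 and 13. All members of EMX2, LHX1 and GATA3 lay outside the gene and were assigned by the nearest coding TSS. Neuronal genes had 5 of 16 (31.3%, 14.2 to 55.6), led by RBFOX3 with 9 members and 7 lost peaks, and blood lineage markers 3 of 14 (21.4%, 7.57 to 47.6). The part of the cells' identity in these counts was not tested.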

How the data were processed

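According to the study's methods and the labels, the authors aligned single reads of 50 bp to hg38 with Bowtie2 2.2.6, discarded reads that mapped to more than one place as well as PCR duplicates (SAMtools 0.1.19) and called peaks per library with MACS2 2.1.1 at a false discovery rate of 0.01. The broad setting and the background track are not given in the sources used here. The deposited columns hold a display score, which was not used, a linear fold over background, and −log10 p and −log10 q of each peak. The deposited fold was used to rank and describe peaks inside their own list. The deposited −log10 q reached down to 1.31, below the stated rate of 0.01.

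Peaks on the autosomes and X were used. Overlaps of at least 1 bp were computed with numpy 2.4.6 and pandas 2.3.3, and 2 overlap counts checked with bedtools 2.31.1 differed in 0. TSSs, exons and genes came from GENCODE 44. No peak reached past a chromosome end of the hg38 reference, from which pysam 0.24.0 read sequences. GC content and motifs were taken from the central 300 bp. No test was run, since every group had 1 library. The code was tested on simulated data with planted overlaps and motifs.

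Named were the 10 members with the highest fold, the 3 longest, the 3 farthest from control Kac, the 5 genes with the most members and up to 3 genes with the most members per list. Further genes of the lists, the runs of members and the genes with an excess over lost peaks were named after their values were seen. The members, the 17 gene lists and the motifs were chosen with earlier results of these data known. The input libraries were not analysed here. Some members, genes and sequences that these rules name are not reported here.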

Additional observations from a re-analysis of the deposited data

How the results depend on the processing

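No paired analysis was possible because no group had more than 1 library, which also left no replicate to omit. There were 70 recomputations of 8 results under 11 settings. Of these, 33 moved by less than the counting interval (counts by less than 1.5 times) and 37 moved more. Counts and shares cannot change sign. A change of sign was possible only for the intronic and AP-1 differences from shared peaks, and 0 of those changed sign. Gained peaks were more often intronic than shared ones in 8 of 8 settings and had fewer AP-1 matches in 10 of 10. Merging peaks within 1 kb left every peak as it was. Its agreement in both tallies, and its part of the 33, was therefore fixed in advance. Unless stated, the number of members was 12017, the gained share 41.8%, the intronic share 62.8%, the share within 5 kb of control Kac 48.1%, the share with a GC content of at least 50% 36.2%, the AP-1 share 10.4%, and the differences from shared peaks 8.18 points (intronic) and -4.35 points (AP-1).

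With SB Kac peaks at a −log10 q of at least 2, there were 5485 members, a gained share of 30.4%, an intronic share of 64.3% (9.73 points over shared peaks) and an AP-1 share of 10.9%. At 5 or more, 87 members were left, with a gained share of 6.47%, 70.1% intronic (18.5 points), 36.8% near control Kac, 28.7% with a high GC content and an AP-1 difference of -5.49 points. The counting interval of that AP-1 difference ran from -10.7 to 2.89 points, so its sign was not settled in this setting. With all lists at 5 or more, there were 1254 members, a gained share of 35.8%, 54.9% intronic (11.3 points), 14.7% near control Kac, 35.1% with a high GC content and an AP-1 share of 12.8% (-3.12 points). This last setting counts weak control peaks as absent.

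When peaks within 1 kb counted as overlapping, the gained share was 38.3%, 43.4% were near control Kac and 34.99% had a high GC content. When 50% of the SB Kac peak had to be covered, these were 50.4% gained, 60.8% intronic and 61.4% near control Kac. In that setting members may overlap a control Kac peak over less than 50% of their length. Such members count as near, so the 61.4% is not the same measure as the share under the main rule. A TSS window of 1 kb gave 50.4% near control Kac and 37.8% with a high GC content, and one of 10 kb gave 6881 members, a gained share of 40.6%, 42.3% near control Kac and 33.0% with a high GC content. The central 1 kb gave 30.9% with a high GC content and an AP-1 share of 30.1% (-8.26 points), and a distance of 20 kb took in 82.4%. With C or G as the middle base, chosen after seeing the data, the AP-1 share was 6.18%. Merging peaks within 1 kb changed nothing, since no peaks of one list lay that close. The cause of these moves was not tested. The unknown depth of the libraries limits every count of gained peaks.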
